A study of Mus musculus with 15 samples.

Results

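The messenger RNAs of 8 genes of mitochondrial iron-sulfur cluster assembly and mitochondrial iron import were measured in 15 mouse liver tumors. The genes were Iscu, Nfs1, Hscb, Glrx5, Isca1, Isca2, Slc25a37 and Slc25a28, found by their symbols in the array annotation as 8 of 24336 gene symbols. They were read by 11 of 55681 probes, since Nfs1, Slc25a37 and Isca1 have a pair of probes each and the other 5 genes have 1 each. RNA of whole tumor tissue was hybridised to 1-colour Agilent arrays, 1 array for each tumor, with 5 tumors in each of 3 groups. All mice were on a C57/BL6J background and all received carbon tetrachloride (CCl4), a toxin that damages hepatocytes, at 0.5 µl per g of body weight in olive oil for 16 weeks from 6 weeks of age. The labels give an injection every 3 days. p53LKO mice lack Trp53 in the liver only, and p53f/f mice carry the floxed, undeleted gene and served as controls. The p53f/f HCC group held 5 hepatocellular carcinomas of 4 mice, since mouse 3717 gave a pair of them. The p53LKO HCC group held 5 hepatocellular carcinomas of 5 mice. The p53LKO ICC group held 5 intrahepatic cholangiocarcinomas of 5 mice, and 4 of these mice, numbers 3731, 3733, 3976 and 5283, also gave an HCC. The study describes the mice whose HCC it compared on the arrays as male, and it does not describe the ICC arrays. The promoter behind the deletion and the age of each mouse at death are not given in the sources used here. No liver without a tumor was on the arrays, so the values compare tumors with tumors.

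Iron-sulfur clusters are cofactors of respiratory complexes, aconitases, ferrochelatase and many enzymes of DNA and RNA metabolism, and hepatocytes, rich in mitochondria, hold many proteins that carry them. In the mitochondrial matrix the cysteine desulfurase NFS1 provides sulfur, and a first cluster is built on the scaffold protein ISCU from that sulfur and from iron. The iron enters through the inner membrane carriers mitoferrin-1 (Slc25a37) and mitoferrin-2 (Slc25a28). The co-chaperone HSCB helps to release the cluster to the glutaredoxin GLRX5, and the paired proteins ISCA1 and ISCA2 act later, in the making of clusters with more iron.

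The probes on which the results rest are shown by the first 30 of their 60 bases, as the array files give them, 5′ to 3′ and in lower case, because the probes of 1 gene did not always move together. Positions of the whole probes are those of mm9 in the array files. The positions on the transcript are counted from its 5′ end.
Isca2, chr12:86115608-86115667, plus strand, transcript position 436: aataaccctcaagcccagcaaggctgctcc
Nfs1, brighter probe, chr2:155949489-155949548, minus strand, transcript position 1877: atcgacttcagctgaagaacaccaagttgt
Nfs1, dimmer probe, chr2:155967752-155967811, minus strand, position 420 of another cDNA: tttctttcttacagatggaaatagctgttt
Glrx5, chr12:106278828-106278887, plus strand, transcript position 637: tacaaccactgcactgtaaatcaatgtcgc
Slc25a37, brighter probe, chr14:69860020-69860079, minus strand, transcript position 3990: taagagtggcctagtgttgctttccgaatg
Slc25a37, dimmer probe, chr14:69902797-69902856, minus strand, transcript position 304: acatgacagcgggagcgatggccgggattc
Iscu, chr19:7743554-7743613, plus strand, transcript position 793: ccttatgctggctatctgataggatctatt

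Both Slc25a37 probes are annotated to 1 transcript. The dimmer Nfs1 probe is annotated to a cDNA other than that of the brighter probe. The Iscu probe is annotated to an Iscu transcript but placed on chromosome 19, whereas RefSeq (GRCm38.p6) has Iscu on chromosome 5. Of 27852 probes with a symbol and both positions, 812 (2.92%) were placed on another chromosome than their gene, so the locus that the Iscu probe measured is not settled. A probe without a symbol, annotated to ENSMUST00000123616, which the files describe as a homolog of ISCU2, lies on chromosome 5 and is given beside Iscu although its symbol is not that of a member.

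A level is the log2 of the processed signal relative to the 75th percentile of its array, so that 0 is the brightness of a probe at that percentile and a difference of 1 is a 2-fold change. All 11 member probes were well above background on all 15 arrays. On the whole array this held for 55.1% to 70.1% of probes in p53f/f HCC, 37.0% to 62.1% in p53LKO HCC and 42.5% to 47.0% in p53LKO ICC. The arrays of the lower row stood apart from the rest, with 37.0% to 47.0% of probes well above background against 55.1% to 70.1% in the upper row. All p53f/f HCC lay in the upper row of their slide and all p53LKO ICC in the lower row, while p53LKO HCC had 3 tumors in the upper row, at 61.0% to 62.1%, and 2 in the lower row, at 46.4% and 37.0%. Trp53, the deleted gene, had levels of -1.27 to -0.68 in p53f/f HCC, -3.86 to -2.75 in p53LKO HCC and -4.19 to -2.31 in p53LKO ICC, so its level was lower in every p53LKO tumor than in every p53f/f tumor. All 5 arrays of p53f/f HCC, 4 of p53LKO HCC and 2 of p53LKO ICC had the Trp53 probe well above background, and on the other arrays its level is not told apart from background. In bulk tissue, fewer cells of a type and less RNA per cell cannot be told apart, and the values below are of tumors with different cell content. Hepatocyte markers had a summed level of 11.48 to 12.27 in p53f/f HCC, 11.10 to 11.52 in p53LKO HCC and 9.37 to 10.74 in p53LKO ICC. The bile duct markers had a summed level of 1.74 to 4.77 in p53f/f HCC, 2.29 to 3.36 in p53LKO HCC and 6.04 to 7.16 in p53LKO ICC. Fibroblast and stellate cell markers had 4.99 to 6.88 in p53f/f HCC, 6.23 to 7.98 in p53LKO HCC and 8.95 to 9.78 in p53LKO ICC.

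**Figure D1:**
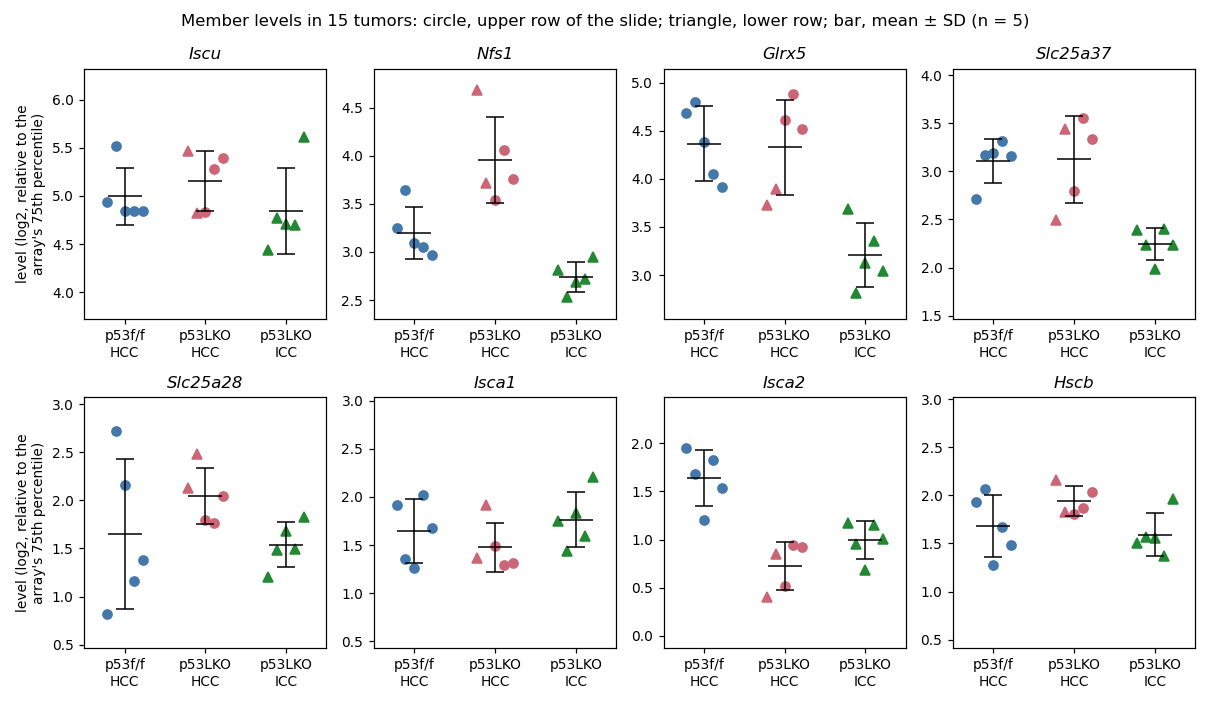
Level of each member (log2, relative to the 75th percentile of the array, vertical axis of equal length in all panels) in the 5 tumors of each group, with circles for the upper and triangles for the lower row of the slide and bars for the mean ± SD. Isca2 separates p53f/f HCC from both p53LKO groups, and Nfs1 (brighter probe), Glrx5 and Slc25a37 have their lowest means in p53LKO ICC.

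Comparing HCC of p53LKO with HCC of p53f/f mice asks how the pathway differs between HCC that lack Trp53 and HCC that keep it. The study reports that tumors formed later in p53f/f than in p53LKO mice. The ages of these mice at death are not known here, so age and genotype cannot be told apart. Isca2 was lower and Nfs1 was higher in p53LKO HCC, and the other 6 members did not pass the test. This is 2 of 8 members, 1 in each direction, where 29.5% of 17841 genes tested passed (13.8% higher and 15.7% lower). The median difference of the members was 0.09 and that of all genes tested was 0.06, both on the log2 scale. None of the 8 exceeded a 2-fold change. Scaling to the spike-in probes moved the median of all genes by 0.74. It gave 6 members higher and 0 lower, with Glrx5 turned from -0.04 to 0.70. Under this scaling 69.5% of the 11627 genes well above background on every array passed, in either direction, against 25.7% without it. The test was limma's moderated test with Benjamini-Hochberg adjustment over all probes tested, counted at an adjusted p under 0.05, and an unadjusted exact permutation test over the 252 ways to choose 5 of 10 arrays is given beside it, with 0.00794 as its smallest p. Such exact tests number 24 over the members and the 3 comparisons.

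Isca2, the late-acting partner of Isca1, had levels of 1.95, 1.68, 1.20, 1.82 and 1.53 in p53f/f HCC. In p53LKO HCC it had 0.40, 0.85, 0.52, 0.94 and 0.93. Every p53LKO HCC was below every p53f/f HCC. The groups did not overlap, in either direction, for 1 member and for 19.5% of all genes tested. The means were 0.73 ± 0.25 and 1.64 ± 0.29 (SD, n = 5 each). The difference was -0.91 (SE 0.19, 95% CI -1.33 to -0.49), a 1.88-fold lower level, with an adjusted p of 0.00463 by limma and an exact permutation p of 0.00794. The spike-in scaling left a difference of -0.17 with an adjusted p of 0.566 by limma.

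Nfs1, the sulfur donor, had levels of 3.25, 3.64, 3.09, 3.05 and 2.97 in p53f/f HCC. In p53LKO HCC it had 4.68, 3.72, 3.54, 4.06 and 3.76. The groups overlapped, with 4 of 5 p53LKO HCC above every p53f/f HCC. The difference of 0.75 (SE 0.23, 95% CI 0.24 to 1.27), a 1.69-fold higher level, had an adjusted p of 0.0305 by limma and an exact permutation p of 0.0159. The dimmer Nfs1 probe differed by 0.49 (SE 0.20) and did not pass, with an adjusted p of 0.0873 by limma. The call on Nfs1 was lost when any one of 5 tumors was left out, with adjusted p values of 0.0506 to 0.0703 by limma: p53LKO HCC of mouse 3976 (difference 0.57), p53LKO HCC of mouse 3733, p53f/f HCC of mouse 3716 and either of the pair from mouse 3717. Averaging the tumors of mouse 3717 gave 0.70 with an adjusted p of 0.0664, and the row of the slide as a block gave 0.59 with an adjusted p of 0.128, both by limma. It also missed the threshold under quantile normalization (0.50, adjusted p 0.121) and under scaling to the probes well above background on every array, by their 75th percentile (0.51, adjusted p 0.0952) or their median (0.57, adjusted p 0.0712), and it passed in 12 of 28 alternatives.

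Because both genes are read on the same array, their difference within a tumor does not depend on a scaling that shifts the whole array by 1 value. The level of Nfs1 minus that of Isca2 was 1.56 ± 0.34 in p53f/f HCC, 3.22 ± 0.60 in p53LKO HCC and 1.74 ± 0.21 in p53LKO ICC (SD, n = 5 each). It ran from 2.83 to 4.28 in p53LKO HCC, above every tumor of the other groups. Nfs1 minus Isca1 overlapped between the HCC groups, at 1.80 to 3.32 in p53LKO HCC and 1.03 to 2.29 in p53f/f HCC, and ran from 0.74 to 1.12 in p53LKO ICC. Isca1 minus Isca2 was 0.01 ± 0.20 in p53f/f HCC, 0.75 ± 0.35 in p53LKO HCC and 0.77 ± 0.37 in p53LKO ICC (SD, n = 5 each), and its lowest value among the p53LKO tumors, 0.36, was above its highest in p53f/f HCC, 0.20. A difference between probes has no meaning as a level, and the pairs were chosen after their values were seen, so no test is given.

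The levels of both iron importers overlapped between the HCC groups. Slc25a28 spanned 0.82 to 2.72 in p53f/f HCC, the widest range of any member in any group, and 1.77 to 2.48 in p53LKO HCC. Its difference was 0.39 (95% CI -0.35 to 1.14). Slc25a37 was 3.12 ± 0.45 in p53LKO HCC against 3.11 ± 0.23 in the controls (SD, n = 5 each), a difference of 0.01 (95% CI -0.49 to 0.52), and its dimmer probe differed by -0.28 (95% CI -0.91 to 0.36). The scaffold gene Iscu differed by 0.16 (95% CI -0.29 to 0.62), the co-chaperone gene Hscb by 0.26 (95% CI -0.15 to 0.66), Glrx5 by -0.04 (95% CI -0.63 to 0.55) and Isca1 by -0.17 (95% CI -0.62 to 0.28). The adjusted p values of these 6 members ran from 0.305 to 0.969 by limma. The intervals of all 6 include 0, and the narrower of them still reach 0.52 or more in size on 1 side.

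**Figure D2:**
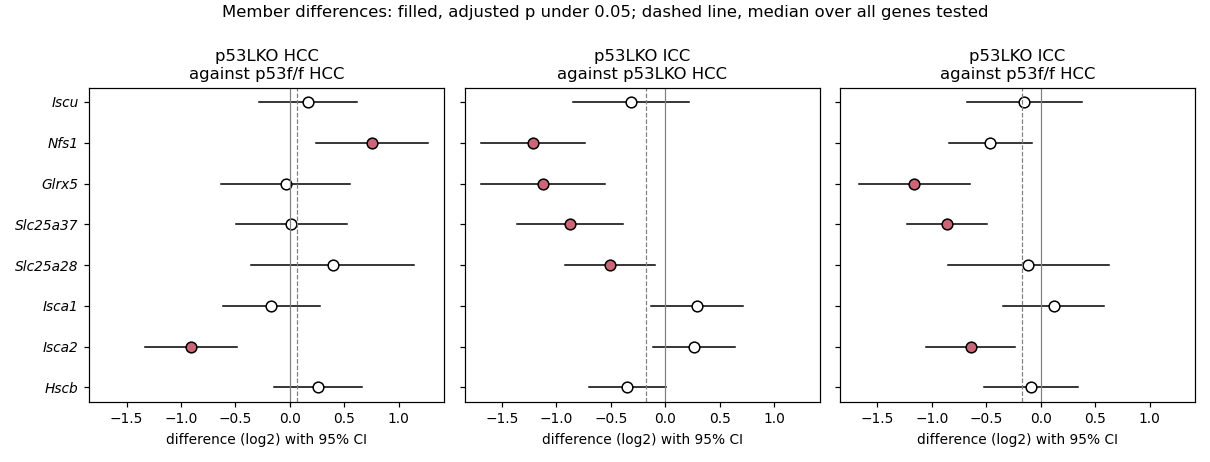
Difference of each member (log2, horizontal axis) with its 95% confidence interval in the 3 comparisons, filled where the adjusted p was under 0.05, with the median of all genes tested as a dashed line. Isca2 and Nfs1 are filled on the left, 4 members below 0 in the middle and 3 members below 0 on the right.

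Comparing ICC with HCC of p53LKO mice asks how the pathway differs between bile duct type and hepatocyte type tumors that both lack Trp53. Nfs1, Glrx5 and both mitoferrin genes were lower in ICC, and no member was higher. These 4 of 8 members stand beside 47.6% of 16957 genes tested that passed, of which 18.5% of genes were higher and 29.1% lower in ICC. The median difference was -0.43 over the members, -0.17 over all genes tested and -0.26 over those well above background on all 15 arrays. In 3 of 8 members every ICC was below every HCC, beside 30.8% of all genes tested that did not overlap in either direction. Another scaling, to the 75th percentile over bright probes alone, that is those well above background on each of the 15 arrays, moved the median of all genes by 0.37. Under it 2 members were lower, Nfs1 and Glrx5, and 2 were higher, Isca1 at 0.66 and Isca2 at 0.64.

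Nfs1 had levels of 2.81, 2.53, 2.69, 2.72 and 2.94 in p53LKO ICC, all below the lowest p53LKO HCC at 3.54. The mean fell from 3.95 ± 0.45 to 2.74 ± 0.15 (SD, n = 5 each). The difference was -1.21 (SE 0.22, 95% CI -1.69 to -0.73), a 2.32-fold lower level, with an adjusted p of 0.00152 by limma and an exact permutation p of 0.00794. It kept its direction and its call in all 28 alternatives tried, between -1.46 and -0.74. The dimmer Nfs1 probe did not follow it, with a difference of -0.27 (95% CI -0.82 to 0.28) and an adjusted p of 0.403 by limma. Its levels in ICC, from -2.14 to -1.04, overlapped those in HCC, and 2 of 5 ICC were below every HCC.

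Glrx5, which carries clusters from the scaffold to later steps, had levels of 3.69, 2.81, 3.13, 3.35 and 3.05 in p53LKO ICC. In p53LKO HCC it had 3.73, 3.90, 4.61, 4.88 and 4.52. The highest ICC was just below the lowest HCC. The difference was -1.12 (SE 0.26, 95% CI -1.69 to -0.55), a 2.18-fold lower level, with an adjusted p of 0.00570 by limma and an exact permutation p of 0.00794. The 2 HCC in the lower row of the slide, mice 3976 and 5283, were at 3.73 and 3.90, and the 3 in the upper row at 4.52 to 4.88. With the row as a block the difference was -0.60 and the adjusted p was 0.101 by limma. In the lower row alone, with 5 ICC and 2 HCC, it was also -0.60, with an adjusted p of 0.148 by limma.

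Slc25a37, the mitoferrin that is abundant in red cell precursors, had levels of 2.39, 2.23, 1.99, 2.40 and 2.24 in p53LKO ICC. In p53LKO HCC it had 2.50, 3.44, 2.80, 3.55 and 3.33. All ICC lay below all HCC, by a narrow margin at mouse 3976. The difference was -0.88 (SE 0.22, 95% CI -1.36 to -0.39), with an adjusted p of 0.00903 by limma and an exact permutation p of 0.00794. The dimmer probe, nearer the 5′ end of the transcript, gave -0.85 with an adjusted p of 0.0265 by limma. With the row as a block the brighter probe gave -0.72 and an adjusted p of 0.0943 by limma. Erythroid markers moved the same way. Of 6 tested, 5 were lower in ICC and 0 higher, with a median of -1.56. Their summed level was 6.19 to 7.96 in p53LKO HCC and 5.12 to 6.27 in p53LKO ICC, and Klf1 and Gata1 were well above background on no array of either group. Their part in the level of Slc25a37 was not tested.

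Slc25a28, the more widely expressed mitoferrin, was 2.04 ± 0.29 in p53LKO HCC and 1.54 ± 0.23 in p53LKO ICC (SD, n = 5 each). The difference of -0.51 (95% CI -0.92 to -0.09) was just past the threshold, with an adjusted p of 0.0467 by limma, and 4 of 5 ICC were below every HCC. It passed in 9 of 28 alternatives, and its value was -0.14 (adjusted p 0.550 by limma) under the scaling to bright probes and -0.77 (adjusted p 0.0324 by limma) with the row as a block. The call was lost without the HCC of mouse 3976, 5283 or 3975 and without the ICC of mouse 3731, 3733, 3976 or 3977, each left out alone, with adjusted p values of 0.0593 to 0.108 by limma. Hscb differed by -0.35 (95% CI -0.70 to 0.00), with an adjusted p of 0.0965 by limma. Iscu differed by -0.31 (95% CI -0.84 to 0.22), Isca1 by 0.29 (95% CI -0.13 to 0.71) and Isca2 by 0.27 (95% CI -0.11 to 0.64), and none of these 3 passed. The ENSMUST00000123616 probe on chromosome 5 differed by 0.14 (95% CI -0.47 to 0.75) here and by -0.13 (95% CI -0.59 to 0.32) between the HCC groups, and it did not pass in any comparison.

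**Figure D3:**
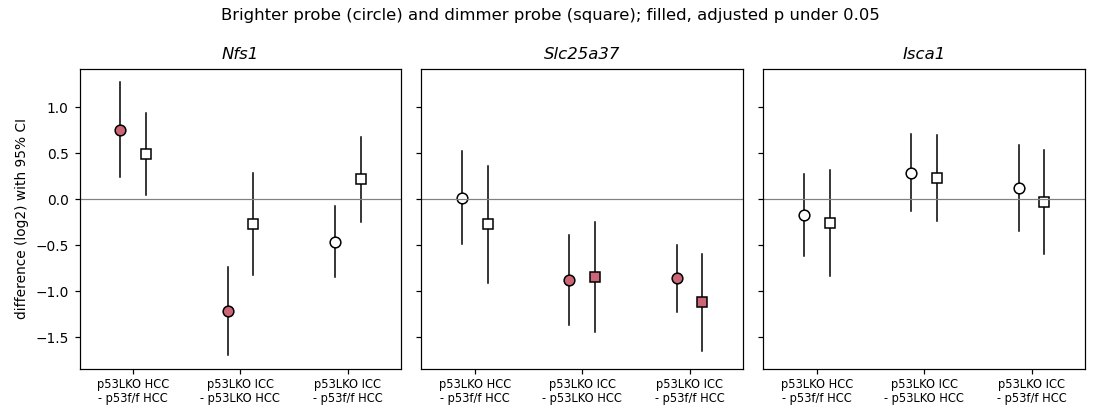
Difference (log2, vertical axis) with its 95% confidence interval for the brighter probe (circle) and the dimmer probe (square) of Nfs1, Slc25a37 and Isca1 in the 3 comparisons, filled where the adjusted p was under 0.05. Both Slc25a37 probes are filled in both comparisons with ICC, whereas the dimmer Nfs1 probe is filled in none.

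For the 4 mice that gave both tumors, the HCC can be subtracted from the ICC of the same animal. Nfs1 was lower in ICC in 4 of 4 mice, by -1.99 in mouse 3976, -1.53 in mouse 3733, -0.78 in mouse 5283 and -0.73 in mouse 3731. Glrx5 was lower in 4 of 4, from -2.07 in mouse 3733 to -0.60 in mouse 3976. Slc25a37 was lower in 4 of 4, from -1.32 to -0.41, and Slc25a28 in 4 of 4, from -0.66 to -0.29. Isca1 and Isca2 went the other way in 4 of 4, Isca1 by 0.14 to 0.47 and Isca2 by 0.01 to 0.65. Iscu and Hscb were lower in 3 of 4 mice and higher in mouse 5283, by 0.79 and 0.14. With the mouse number as a replicate block, limma called 2 members, Nfs1 at -1.26 (adjusted p 0.0271) and Glrx5 at -1.11 (adjusted p 0.0409). Slc25a37 at -0.86 (adjusted p 0.0505) and Slc25a28 at -0.50 (adjusted p 0.108) no longer passed.

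**Figure D4:**
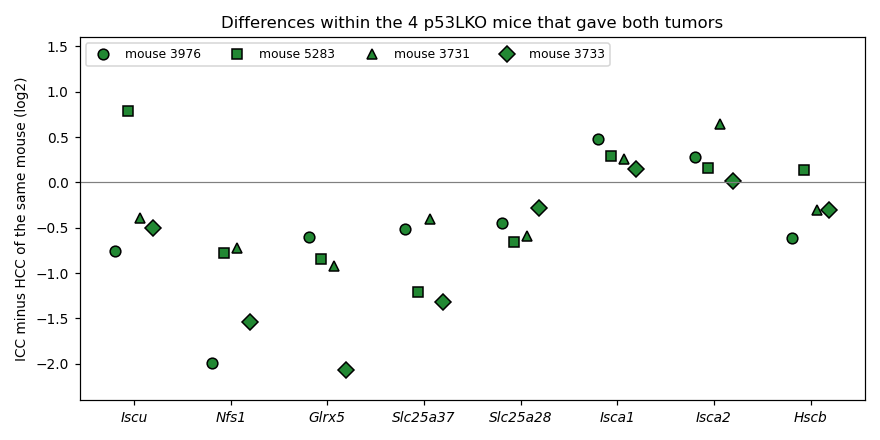
Level in ICC minus level in HCC (log2, vertical axis) of the same animal for each member, with 1 symbol for each of the 4 p53LKO mice that gave both tumors. All 4 symbols lie below 0 for Nfs1, Glrx5, Slc25a37 and Slc25a28, and all 4 above 0 for Isca1 and Isca2.

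The comparison of p53LKO ICC with p53f/f HCC shares each of its groups with one of the other comparisons, and here the row of the slide and the group cannot be told apart. Age at death and genotype cannot be told apart here either. Glrx5, Slc25a37 and Isca2 were lower in ICC and none was higher, 3 of 8 members beside 37.0% of 17772 genes tested, of which 16.2% of genes were higher and 20.8% lower. The median was -0.31 over the members and -0.18 over all genes. Glrx5 differed by -1.16 (SE 0.23, adjusted p 0.00410 by limma) and Slc25a37 by -0.86 (SE 0.17, adjusted p 0.00345), with -1.12 for its dimmer probe (adjusted p 0.00557). Isca2, at 0.99 ± 0.20 in ICC (SD, n = 5), differed by -0.64 (SE 0.18, adjusted p 0.0212 by limma). The slides were also uneven, with 4 of 5 p53f/f HCC on the first and 4 of 5 ICC on the second. With the slide as a block 1 member passed, Slc25a37 at -0.82 (adjusted p 0.0401), while Glrx5 at -0.81 (adjusted p 0.0584) and Isca2 at -0.54 (adjusted p 0.160) did not, all by limma. Under spike-in scaling, which moved the median of all genes by 0.75, 0 members passed, with Glrx5 at -0.41, Slc25a37 at -0.11 and Isca2 turned to 0.10. Nfs1 differed by -0.46 (SE 0.17) and every ICC was below every p53f/f HCC (exact permutation p 0.00794), but its adjusted p was 0.0612 by limma. The dimmer Nfs1 probe went the other way, by 0.22 (95% CI -0.25 to 0.68, adjusted p 0.442 by limma), with 2 of 5 ICC above every p53f/f HCC. The probes of Isca1 gave 0.12 and -0.03, and neither passed. By the brighter probes, 4 of 8 members did not overlap between these groups, against 27.4% of all genes tested. Erythroid markers were lower here too, 3 of 6, with a summed level of 5.82 to 9.17 in p53f/f HCC, and their part was not tested.

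Set in order over the 3 groups, the means of the brighter Nfs1 probe were 3.95 in p53LKO HCC, 3.20 in p53f/f HCC and 2.74 in p53LKO ICC, of which the lower pair of neighbours did not differ past the threshold. The dimmer probe had ICC above p53f/f HCC, at -1.73 and -1.95. Isca2 ran from 1.64 in p53f/f HCC to 0.99 in p53LKO ICC and 0.73 in p53LKO HCC, and again the lower pair did not pass. Glrx5 was 4.37 in p53f/f HCC, 4.33 in p53LKO HCC and 3.21 in p53LKO ICC, and its upper pair did not pass. Slc25a37 stood at 3.12 in p53LKO HCC, 3.11 in p53f/f HCC and 2.25 in p53LKO ICC, with an upper pair that did not pass. For Iscu (4.84 to 5.16), Hscb (1.59 to 1.94) and Isca1 (1.48 to 1.76), no pair of groups passed, and for Slc25a28 (1.54 to 2.04) the pair of ICC and HCC of p53LKO mice passed.

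The genes around the members in the pathway were counted from lists, to be read against the 29.1% lower and 18.5% higher among all genes tested between ICC and HCC of p53LKO mice. Of the 16 tested genes that act beside them in mitochondrial assembly and export, 8 were lower and 1 higher in p53LKO ICC than in p53LKO HCC, with a median of -0.49. Bola3, an assembly factor, fell by 1.29 (adjusted p 0.000359), the transporter Abcb10 by 1.16 (adjusted p 0.000937) and ferredoxin Fdx1 by 1.09 (adjusted p 0.00539), all on the log2 scale by limma. Sdhaf1, an assembly factor of succinate dehydrogenase, was higher by 1.76 (adjusted p 0.000533 by limma). Under scaling to the bright probes, 6 of these 16 were lower and 2 higher, with a median of -0.12. Of 11 genes of cytosolic assembly, 5 were lower and 0 higher with a median of -0.40, led by Ciapin1 at -1.21 and Nubp1 at -1.15, and 2 were lower with the mouse number as a replicate block. Quantile normalization gave 3 lower and 2 higher with a median of -0.27. Scaling to the bright probes gave 3 lower and 1 higher with a median of -0.04.

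Among the proteins that receive mitochondrial clusters, 14 of 15 tested genes were lower in ICC and 0 higher, with a median of -0.93 and complex I subunits in front. The count was 8 with a median of -0.48 under quantile normalization and 10 with a median of -0.56 under scaling to the bright probes. Ndufs1 fell by 1.53 (adjusted p 0.000171) and Ndufv1 by 1.45 (adjusted p 0.000219), and ferrochelatase (Fech), the last enzyme of heme synthesis, by 1.35 (adjusted p 0.000413), all on the log2 scale by limma. A list of 16 mitochondrial genes outside cluster assembly, whose proteins carry no iron-sulfur cluster, had 14 lower and 0 higher with a median of -0.97, among them the chaperonin Hspd1 at -1.77 and the carriers Slc25a5 at -1.51 and Slc25a4 at -1.49. Here 9 were lower and 1 higher under either scaling, with medians of -0.55 and -0.60. Genes of cytosolic and nuclear iron-sulfur proteins counted 8 lower and 1 higher of 23, a share of lower genes near that of all genes, with a median of -0.46, and 4 lower and 1 higher with the mouse number as a replicate block. The xanthine and aldehyde oxidases Xdh (-1.20) and Aox1 (-1.98) were lower, and the DNA polymerase subunit Pold1 was higher by 2.33 (adjusted p 0.000139 by limma). Under scaling to the bright probes, 3 of these 23 genes were lower and 4 higher, with a median of -0.09. Over these 5 lists, 49 of 81 genes were lower and 2 higher, and 31 were lower and 8 higher under scaling to the bright probes. Of the hepatocyte markers, 7 of 10 were lower in ICC with a median of -1.60, and of the fibroblast and stellate cell markers 6 of 7 were higher with a median of 2.37. The part of both in these counts was not tested.

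**Figure D5:**
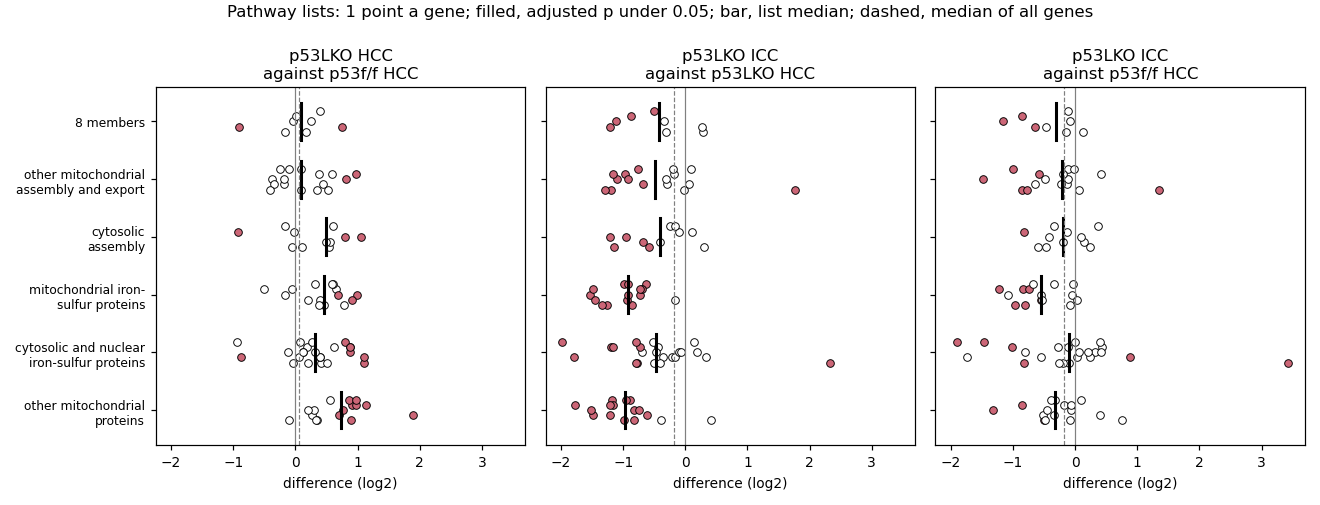
Difference (log2, horizontal axis) of each gene of the 8 members and of 5 lists of the pathway in the 3 comparisons, filled where the adjusted p was under 0.05, with the list median as a bar and the median of all genes tested as a dashed line. In the middle panel the mitochondrial iron-sulfur proteins (median -0.93) and the other mitochondrial proteins (median -0.97) both lie left of the members (median -0.43).

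Between the HCC groups more of these genes were higher than lower in p53LKO HCC. Of 81 genes, 22 were higher and 2 lower, against 14 higher and 5 lower under scaling to the bright probes. Among all genes tested 13.8% were higher and 15.7% lower, and the shares of higher genes in mitochondrial assembly and export, in cytosolic assembly and in mitochondrial iron-sulfur proteins lie near that of all genes. Of 15 genes of mitochondrial iron-sulfur proteins, 3 were higher and 0 lower with a median of 0.46, Ndufs1 at 0.99 (adjusted p 0.00764), Ndufv1 at 0.92 (adjusted p 0.0410) and Ndufv2 at 0.68 (adjusted p 0.0350 by limma). Of the 16 other mitochondrial proteins, 9 were higher and 0 lower with a median of 0.73, led by Slc25a4 at 1.89. Under quantile normalization, scaling to the bright probes and the row as a block, 4, 5 and 5 of these 16 were higher, and 1 of the 15 mitochondrial iron-sulfur proteins was higher under each. Quantile normalization and scaling to the bright probes each also had 1 of the 15 lower, with medians of 0.23 and 0.21. In mitochondrial assembly and export, Abcb10 (0.97) and Iba57 (0.81), which works with the ISCA proteins, were higher and 0 of 16 were lower. In cytosolic assembly, Fam96b (1.05) and Ciapin1 (0.80) were higher and Ndor1 (-0.93) lower, of 11 tested. The Ndor1 probe was by far the brightest of this list, at a mean of 9.24 in p53f/f HCC, where Bola2 was next at 4.50. The transcript that the Ndor1 probe reads was not checked. Of 23 genes of cytosolic and nuclear iron-sulfur proteins, 6 were higher and 1 lower with a median of 0.32, led by Prim2 at 1.11 and Pold1 at 1.10. Neutrophil markers were higher in p53LKO HCC, 3 of 6, with a summed level of 4.73 to 6.25 against 3.07 to 4.15 in p53f/f HCC. Of the fibroblast and stellate cell markers 1 of 7 was higher with a median of 0.90, while 3 of 10 hepatocyte markers were lower with a median of -0.43 and 2 of 6 endothelial markers were lower with a median of -0.26. The part of these markers was not tested.

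Against p53f/f HCC, ICC had 6 of 15 genes of mitochondrial iron-sulfur proteins lower and 0 higher, with a median of -0.55, where 20.8% of all genes tested were lower. With the slide as a block 1 of 15 was lower, and under spike-in scaling 0 were lower and the median was 0.20. Cisd1, an outer membrane protein with a cluster, fell by 1.23 (adjusted p 0.00150) and Fech by 0.97 (adjusted p 0.00828), both on the log2 scale by limma. In mitochondrial assembly and export 5 of 16 were lower and 1 higher, Fdx1 at -1.48 and Sdhaf1 at 1.35 in front. Ndor1 (-0.83), by the same unchecked probe, was lower among the 11 genes of cytosolic assembly. Of the other mitochondrial proteins, 3 of 16 were lower with a median of -0.33, and of the cytosolic and nuclear iron-sulfur proteins 4 of 23 were lower and 2 higher, shares of lower genes near that of all genes. Over the 5 lists, 19 of 81 genes were lower and 3 higher, which became 1 lower and 14 higher under spike-in scaling and 5 lower and 3 higher with the slide as a block. Hepatocyte markers were lower in ICC in 6 of 10 with a median of -1.86, and fibroblast and stellate cell markers higher in 6 of 7 with a median of 3.61. Bile duct markers were higher in 5 of 7 and macrophage markers in 3 of 7, and endothelial markers were lower in 3 of 6. The part of all these markers in the counts was not tested.

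The genes whose levels followed a member most closely over the 15 arrays were named by Pearson correlation among 18032 genes, as a description in which the arrays share groups and slides. Nfs1 was closest to Eif2ak1, the heme-regulated kinase of translation (r = 0.97), and to Gadd45gip1, a mitochondrial ribosome protein (r = 0.96). Glrx5 was closest to Timd2 (r = 0.95) and to the adenine nucleotide carrier Slc25a5 (r = 0.95), and Slc25a37 to Mx2 (r = 0.92). Hscb was closest to Fam58b (r = 0.88) and Pmpca (r = 0.86), a subunit of the mitochondrial processing peptidase. The nearest genes were Slc43a2 for Slc25a28 (r = 0.93), Surf2 for Iscu (r = 0.92), A530016L24Rik for Isca2 (r = 0.92) and Il17ra for Isca1 (r = 0.88).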

How the data were processed

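Tumors were grouped by the labels, which also give the mouse, and replicates are tumors. From the scanner images the authors made, with Feature Extraction version 10.7.3.1, the deposited processed signal, an intensity after background subtraction. A second deposited file of the authors holds log2 values. They were found to be this signal relative to the array's 75th percentile, with each probe centred on the median of 10 arrays (r at least 0.9999; column medians -0.325 to 0.344), so direction and scale are known. They served as an alternative for the HCC groups only. For the arrays the study's methods name GeneSpring and adjusted p-values, with no model named there, and their general statistics section names the Mann-Whitney test and Welch's form of the t-test, both run as alternatives.

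The fits used limma 3.58.1 (lmFit, eBayes) under R 4.3.3, and matplotlib 3.10.9 in Python 3.11.15 drew the figures. Spots of a probe were averaged as log2 processed signal, from which the 75th percentile of the array's non-control probes was subtracted. A probe was tested if at least 3 arrays of 1 of the groups compared had it well above background, with p-values adjusted over all of them. The probe of highest mean signal stood for a gene, and its other probe was given where direction or call differed. Named beside the members are, per list and comparison, up to 5 called genes by largest difference, and for each member the genes of highest correlation. The fit was tested on simulated data. Arrays have no read depth, and their number limits the precision. Tumors of 1 mouse are not independent animals. The members and all gene lists were chosen with earlier results of these data known. Sequences and positions come from the array files. Values of a few genes that these rules would name are not reported here.

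HCC and ICC of 1 mouse are paired by the mouse number in the labels. Their deviations from the group means correlated at -0.167 to 0.0409 over 4 same-mouse pairs and at -0.217 to 0.231 over 21 others. Alternatives were normexp (offset 50), quantile and other scalings, filters, blocks, tests, thresholds and leaving out each tumor. The spike-in scaling was planned with its effect on these data known.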

Additional observations from a re-analysis of the deposited data

Results flagged for a closer look

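Of 24 sets of 5 tumors (8 members in 3 groups), 3 held a tumor that stood apart from the other 4 by a gap over 0.71 of the whole range, where chance gives about 1 in 20. Iscu was at 5.52 in the p53f/f HCC of mouse 3715 and at 4.84 to 4.94 in the other 4. Iscu was at 5.61 in the p53LKO ICC of mouse 5283 and at 4.44 to 4.78 in the other 4. Slc25a37 was at 2.72 in the p53f/f HCC of mouse 3681 and at 3.15 to 3.32 in the other 4.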

How the results depend on the processing

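Between the HCC groups 2 members passed. The count was 1, Isca2, under quantile normalization, either scaling to bright probes (75th percentile or median), no filter on dim probes, the Mann-Whitney test, the methods' t-test, an adjusted p under 0.01, the row of the slide as a block, the upper row alone and the mean of the tumors of mouse 3717. It was 0 with a fold over 2 required and 6, all higher, under spike-in scaling, where Glrx5 turned to 0.70. Leaving out 1 tumor gave 1 to 2. Between ICC and HCC of p53LKO mice 4 members passed. The count was 2 with a fold over 2, 2 with the row as a block, 1 in the lower row alone and 2 with the mouse number as a replicate block. With normexp 5 members were lower and 0 higher, and under quantile normalization 3 were lower and 1 higher. Between ICC and p53f/f HCC 3 passed. The count was 1 with the slide as a block, 1 with a fold over 2 and 0 under spike-in scaling, where Isca2 turned to 0.10. It was 2 under scaling to the 75th percentile of bright probes and 4 with normexp, all lower.

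Spike-in scaling moved the median of all genes by 0.74 between the HCC groups and by 0.75 between ICC and p53f/f HCC, and the 75th percentile of bright probes moved it by -0.25 and 0.12. Of the 11627 genes well above background on every array, 25.7% passed between the HCC groups and 69.5% under spike-in scaling. Over the 5 other lists, 24 genes passed between the HCC groups and 65 under spike-in scaling. In the same lists, 22 passed between ICC and p53f/f HCC and 8 with the slide as a block. The settings of these lists other than quantile and bright-probe scaling were chosen after seeing the data. The causes of these moves were not tested. Isca2 between the HCC groups passed in 26 of 28 alternatives, Nfs1 in 12, and between ICC and HCC of p53LKO mice Nfs1 passed in 28 of 28, Glrx5 in 26, Slc25a37 in 23 and Slc25a28 in 9. Without the ICC of mouse 3976, Isca2 no longer passed between ICC and p53f/f HCC. Signal over background did not limit the members, since all their probes were well above it on every array.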
